A study of Mus musculus with 30 samples.

Results

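Ggt1 and 8 further genes of glutathione metabolism (Gclc, Gclm, Gss, Gsr, Gpx1, Gpx4, Slc7a11 and Txnrd1) were followed across sorted T cells of mice with a conditional Prmt5 knockout and of wild-type mice. Prmt5 is the gene of an arginine methyltransferase. The 9 genes were taken by symbol from a fixed list, are 9 of the 20738 gene symbols found in all 3 deposited count tables, and were chosen by their measured levels and CKO over WT differences in these data, Ggt1 leading. Their values are therefore given as a description, with no test.

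The conditional knockout (CKO) mice carried CD4-Cre and floxed Prmt5 (PRMT5fl/fl), the control mice (WT) were wild type, and all were C57BL/6. T cells were sorted by flow cytometry as thymus double-positive (DP), CD4 single-positive (CD4 SP) and CD8 single-positive (CD8 SP) cells and as spleen CD4 and CD8 cells, with 3 libraries per genotype in each of the 5 populations, 30 in all. CD4-Cre deletes in developing T cells from the DP stage, and the labels name no group with Cre and intact Prmt5, so the effect of Cre cannot be told apart from that of losing Prmt5. Library titles carry numbers, but whether each number is 1 mouse is not spelled out, so p-values measure the spread between these libraries.

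Glutathione is the main small thiol of cells and is built from glutamate, cysteine and glycine. Slc7a11 brings in cystine, the glutamate-cysteine ligase (catalytic subunit Gclc, modifier subunit Gclm) and glutathione synthetase (Gss) build the peptide, and glutathione reductase (Gsr) restores it after use by the peroxidases Gpx1 and Gpx4. Gamma-glutamyltransferase, the product of Ggt1, sits on the outer cell surface and starts the breakdown of glutathione outside the cell, which returns its amino acids. Txnrd1, the cytosolic thioredoxin reductase, serves the parallel thioredoxin system.

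Levels are CPM, read counts scaled to a common library size by TMM within a table, as means ± SD over 3 libraries. Log2 fold changes come from edgeR with their standard error (SE), and adjusted p-values are Benjamini-Hochberg values from edgeR's quasi-likelihood test over all genes tested. Library totals lay between 11865646 and 22881226 counts in the table of DP and CD4 SP, between 28721963 and 35353441 for CD8 SP, and between 24729146 and 27192847 for the spleen. Prmt5 itself was lower in every CKO library than in every WT library of its population, at 22.3 ± 2.98 against 43.6 ± 0.541 CPM in spleen CD4 and 35.6 ± 6.34 against 65.1 ± 3.17 CPM in spleen CD8. It was 30.6 ± 0.383 against 65.01 ± 4.99 CPM in DP and 31.0 ± 9.37 against 63.1 ± 5.75 CPM in CD4 SP. In CD8 SP the difference was smaller, at 116 ± 1.09 against 144 ± 7.96 CPM. In CD4 SP libraries, transcripts that mark the DP stage reached 1354 to 8423 CPM summed in CKO and 3761 to 6075 CPM in WT, against 9285 to 11160 CPM in DP libraries. The sum includes Cd4, which CD4 SP cells also express, and it was 900 to 915 CPM in WT spleen CD4, so not all of it marks DP cells. CKO 17 held the least of these transcripts and CKO 14 the most, so CD4 SP values are given library by library. In bulk RNA, fewer cells of a type and less RNA per cell cannot be told apart.

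Ggt1 lies on the plus strand of chromosome 10 (GRCm38, chr10:75561604-75586200). Gpx4 (chr10:80047166-80056439) and Txnrd1 (chr10:82833951-82897712) lie on the same chromosome. Gclm (chr3:122245557-122270732) and Slc7a11 (minus strand, chr3:49892526-50443614) share chromosome 3, and Gclc (chr9:77754535-77794485) and Gpx1 (chr9:108338903-108340343) share chromosome 9. Gss is on chr2:155563181-155592810 and Gsr on chr8:33652523-33698163. Exons of Gss overlap those of Acss2 by 395 bases on the opposite strand and Gclm overlaps gene models on both strands. The strand setting of the counting is not given, so the values of Gss and Gclm may hold reads of those neighbours, and Gpx4 has an annotated processed copy, Gpx4-ps2.

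The promoter windows shown are the 250 bases before annotated RefSeq starts (GRCm38.p6), written 5′ to 3′ on the strand of the gene, for the genes with a window that holds a response element of the pathway's known regulators. There were 15 windows for 7 of the 9 genes, and Gclc and Gsr had none, so they were not searched. A match was found in 5 windows, which were 2 of 4 for Ggt1, 1 of 3 for Txnrd1 and the only window of Gclm and of Slc7a11. Capitals mark the core of the antioxidant response element, TGACNNNGC or its reverse complement GCNNNGTCA, which NRF2 is known to bind, and in Slc7a11 the amino acid response element, TTGCATCA or its reverse complement TGATGCAA, known for ATF4. Both strands were searched. The windows are chr10:75568412-75568661 and chr10:75571310-75571559 for Ggt1, chr3:122245307-122245556 for Gclm, chr10:82858956-82859205 for Txnrd1 and, on the minus strand, chr3:50443614-50443863 for Slc7a11.
Ggt1, first window: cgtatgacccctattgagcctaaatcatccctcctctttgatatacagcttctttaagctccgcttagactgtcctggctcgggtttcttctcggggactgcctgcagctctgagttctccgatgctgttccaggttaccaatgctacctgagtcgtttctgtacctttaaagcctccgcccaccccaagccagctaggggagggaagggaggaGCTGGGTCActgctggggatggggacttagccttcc
Ggt1, second window: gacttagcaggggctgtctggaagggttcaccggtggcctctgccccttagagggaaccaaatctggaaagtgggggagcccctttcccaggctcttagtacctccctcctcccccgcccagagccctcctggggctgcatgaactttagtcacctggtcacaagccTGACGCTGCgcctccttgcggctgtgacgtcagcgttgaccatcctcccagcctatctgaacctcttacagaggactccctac
Gclm: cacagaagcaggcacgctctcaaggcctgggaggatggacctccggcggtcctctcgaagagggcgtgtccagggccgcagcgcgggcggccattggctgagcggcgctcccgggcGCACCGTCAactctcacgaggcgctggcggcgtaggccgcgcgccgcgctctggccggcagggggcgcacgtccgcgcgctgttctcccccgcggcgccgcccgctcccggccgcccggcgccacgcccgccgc
Txnrd1: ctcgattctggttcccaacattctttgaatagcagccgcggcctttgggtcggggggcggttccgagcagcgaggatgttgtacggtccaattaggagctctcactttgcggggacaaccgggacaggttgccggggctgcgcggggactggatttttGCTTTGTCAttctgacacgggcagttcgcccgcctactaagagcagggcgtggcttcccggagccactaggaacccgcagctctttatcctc
Slc7a11: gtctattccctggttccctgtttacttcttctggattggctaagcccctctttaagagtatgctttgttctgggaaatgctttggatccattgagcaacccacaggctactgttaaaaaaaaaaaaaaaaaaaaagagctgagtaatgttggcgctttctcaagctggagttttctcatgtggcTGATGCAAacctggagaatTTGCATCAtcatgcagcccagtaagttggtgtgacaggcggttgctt
The antioxidant core occurred in 10.2% and the amino acid element in 0.791% of all 32851 such windows. These are shares of windows, and a gene with several windows, such as Ggt1 or Txnrd1, is more likely to have a match in at least 1. In Slc7a11 the elements lay 66 to 59 and 47 to 40 bases before the start, in opposite orientations. A match describes the letters and does not show a bound site. Of the 4 genes, Ggt1, which led the choice of the set, differed most between genotypes in the spleen, as given next. Gclm and Txnrd1 hold the same core, with log2 fold changes of -0.34 and 0.10 in spleen CD8 and 0.05 and -0.003 in spleen CD4. The part of these elements in the genotype differences was not tested.

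Ggt1 was higher in CKO than in WT in both spleen populations, with no overlap. In spleen CD8 cells it measured 242, 248 and 187 CPM in CKO 65, 68 and 72, against 62.4, 70.6 and 65.8 CPM in WT 67, 70 and 71. The means were 226 ± 33.5 CPM in CKO and 66.3 ± 4.14 CPM in WT (SD, n = 3 each), a log2 fold change of 1.77 ± 0.11 (SE). The lowest CKO library lay far above the highest WT library. In spleen CD4 cells Ggt1 measured 66.4, 67.1 and 58.0 CPM in CKO 65, 68 and 72, against 8.17, 10.7 and 8.77 CPM in WT 67, 70 and 71. The means were 63.8 ± 5.07 CPM in CKO and 9.22 ± 1.34 CPM in WT, a log2 fold change of 2.79 ± 0.12. The CKO level in CD4 cells thus stood beside the WT level in CD8 cells of the same table. The fitted difference was larger in CD4 than in CD8 cells, and the genotype effect in CD8 minus that in CD4 was -1.02 ± 0.16 on the log2 scale, given as a description.

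**Figure D1:**
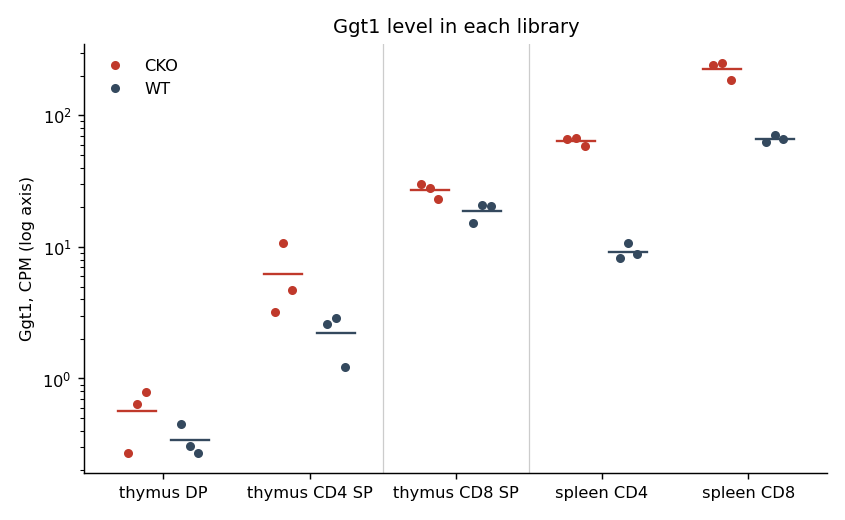
Ggt1 level (CPM, log axis) in each of the 30 libraries, by population, with CKO points left of WT points and a bar at each mean. Grey lines part the 3 count tables, within which levels are comparable. In both spleen populations the CKO libraries sit clear of the WT libraries, at 187 to 248 against 62.4 to 70.6 CPM in CD8 cells and 58.0 to 67.1 against 8.17 to 10.7 CPM in CD4 cells.

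In the thymus the fitted Ggt1 differences between genotypes were smaller than in the spleen. CD8 SP cells had 30.1, 27.8 and 23.1 CPM in CKO 1, 2 and 3, against 15.3, 20.9 and 20.5 CPM in WT 1, 2 and 3, a log2 fold change of 0.52 ± 0.13 with no overlap. Xist, which female cells express, was 4.32, 2150 and 1922 CPM in CKO 1, 2 and 3 of CD8 SP, against 3.77 to 5.28 CPM in WT. The part of sex in the CD8 SP values was not tested. CD4 SP cells had 3.18, 10.7 and 4.74 CPM in CKO 14, 17 and 23, against 2.60, 2.89 and 1.22 CPM in WT 15, 18 and 24. All CKO libraries lay above all WT libraries, but CKO 17, which held the least DP transcripts, lay far above the others. The log2 fold change of 1.48 ± 0.54 became 0.84 without it. DP cells had 0.27, 0.63 and 0.79 CPM in CKO 14, 17 and 23, against 0.45, 0.31 and 0.27 CPM in WT 15, 18 and 24, that is 4 to 13 reads a library. These overlapped, and Ggt1 did not pass the filter on low counts there, so 8 of the 9 genes were fitted in DP and all 9 elsewhere.

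Ggt1 also differed between WT populations. The 9 genes were chosen with their levels per population in view, so these differences too are a description with no test. In the spleen Ggt1 had 66.3 ± 4.14 CPM in WT CD8 cells against 9.22 ± 1.34 CPM in WT CD4 cells, a log2 difference of 2.84 ± 0.10, with no overlap. In the thymus it had 2.24 ± 0.892 CPM in WT CD4 SP cells against 0.341 ± 0.0944 CPM in WT DP cells, where it was too low for the genotype fit. WT CD8 SP cells, in a table of their own, had 18.9 ± 3.13 CPM.

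Slc7a11, the cystine carrier, had its highest values in DP cells and ran opposite to Ggt1 between thymus stages. In DP cells it had 249, 300 and 250 CPM in CKO 14, 17 and 23, against 300, 293 and 222 CPM in WT 15, 18 and 24, with full overlap. WT CD4 SP cells had 134 ± 27.7 CPM against 272 ± 43.3 CPM in WT DP cells, a log2 difference of -1.01 ± 0.15 with no overlap. In the spleen it was near the floor, at 0.348 to 1.15 CPM or 9 to 29 reads a library.

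Between genotypes, Slc7a11 in CD4 SP cells was 36.1, 4.35 and 127 CPM in CKO 14, 17 and 23, against 163, 108 and 132 CPM in WT 15, 18 and 24. The CKO libraries ran from far below WT into the WT range. Its log2 fold change of -1.26 ± 0.96 ran from -2.67 without CKO 23 to -0.71 without CKO 17. Rag1, the recombinase gene that DP cells express, was 2013, 30.7 and 953 CPM in the same CKO libraries against 1103, 713 and 1767 CPM in WT. CKO 17 was thus lowest in both genes, while CKO 14 had the highest Rag1 and a low Slc7a11. The part of DP cell content in the Slc7a11 values was not tested. In CD8 SP cells Slc7a11 had 15.2, 13.7 and 23.8 CPM in CKO 1, 2 and 3, against 8.18, 16.2 and 9.97 CPM in WT 1, 2 and 3, a log2 fold change of 0.61 ± 0.25 with overlap.

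**Figure D2:**
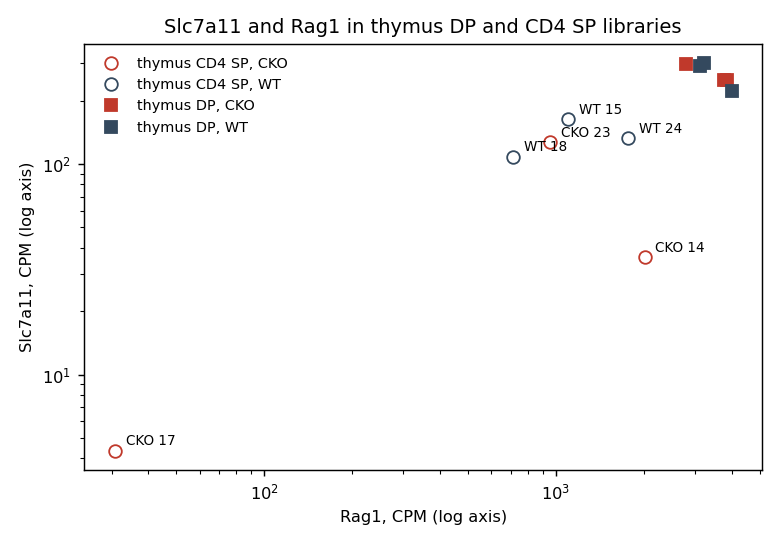
Slc7a11 against Rag1 (CPM, both log axes) in the 12 thymus DP and CD4 SP libraries, with squares for DP and circles for CD4 SP, red for CKO and blue for WT. CKO 17 stands alone at 30.7 CPM of Rag1 and 4.35 CPM of Slc7a11, and CKO 14 lies below the other libraries of similar Rag1, at 36.1 CPM.

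The genes that build glutathione differed little between genotypes. Gclc had 76.4, 88.0 and 89.2 CPM in spleen CD8 CKO 65, 68 and 72, against 91.0, 93.1 and 89.7 CPM in WT 67, 70 and 71, a log2 fold change of -0.11 ± 0.08. In spleen CD4 it had 70.1, 72.8 and 70.3 CPM in CKO against 73.5, 79.3 and 77.2 CPM in WT, a log2 fold change of -0.11 ± 0.07. The groups did not overlap in either population, by margins under 1 CPM. Gclm had 12.5, 11.6 and 11.5 CPM in spleen CD8 CKO libraries, against 12.8, 17.3 and 15.05 CPM in WT, a log2 fold change of -0.34 ± 0.14, and the highest CKO and lowest WT libraries nearly met. In spleen CD4 its means were 16.9 ± 2.63 CPM in CKO and 16.4 ± 0.666 CPM in WT, with overlap. Gss, which closes the synthesis, averaged 8.88 ± 0.716 CPM in CKO and 10.1 ± 0.833 CPM in WT of spleen CD8, and overlapped between genotypes in all 5 populations.

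Gpx1, the abundant cytosolic glutathione peroxidase, took opposite signs in the spleen populations. In CD8 cells it had 65.1, 66.7 and 59.7 CPM in CKO 65, 68 and 72, against 88.3, 75.9 and 75.6 CPM in WT 67, 70 and 71, a log2 fold change of -0.32 ± 0.09 with no overlap. In CD4 cells it had 89.2, 79.9 and 103 CPM in CKO against 77.1, 78.5 and 82.0 CPM in WT, a log2 fold change of 0.19 ± 0.09 with overlap. Gpx4, which reduces lipid peroxides in membranes, averaged 38.8 ± 5.37 CPM in CKO and 47.4 ± 5.85 CPM in WT of spleen CD8, and these overlapped. Its DP libraries did not overlap, with means of 34.0 ± 2.23 CPM in CKO and 39.1 ± 1.46 CPM in WT, a log2 fold change of -0.20 ± 0.09.

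Gsr overlapped between genotypes in every population, with log2 fold changes between -0.15 and 0.08. Txnrd1 had 121, 121 and 124 CPM in spleen CD8 CKO 65, 68 and 72, against 112, 116 and 113 CPM in WT 67, 70 and 71, a log2 fold change of 0.10 ± 0.06 with no overlap. In CD8 SP it lay lower in CKO, at 180 ± 3.56 CPM against 193 ± 7.48 CPM in WT, also with no overlap. In CD4 SP the library CKO 14 stood apart in several genes, with 144 CPM of Gpx1, 145 CPM of Txnrd1, 48.3 CPM of Gsr and 63.4 CPM of Gpx4, each the highest value of its population. Without CKO 14 the log2 fold change of Gpx1 there fell to 0.08, against 0.47 with it, and that of Gsr was -0.34, against 0.08 with it.

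**Figure D3:**
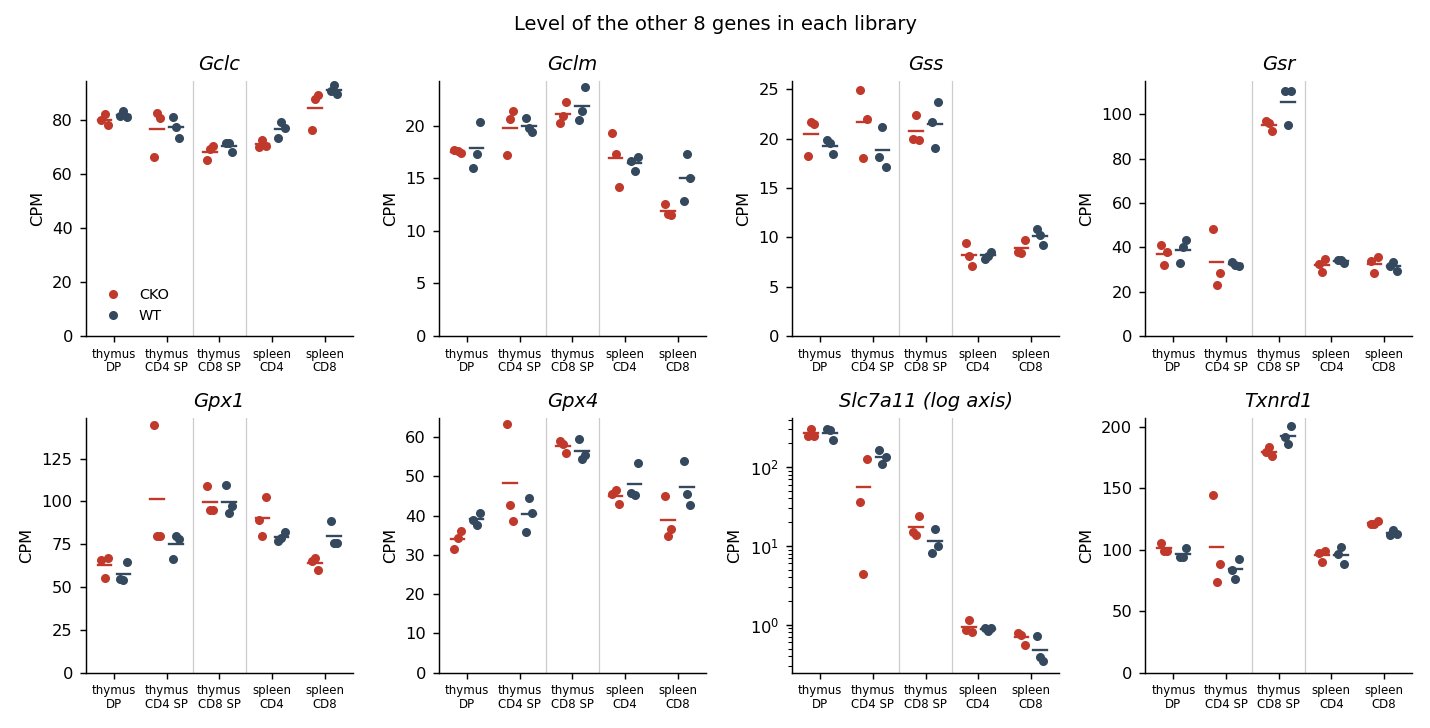
Level (CPM) of the other 8 genes in each library, by population, with CKO points left of WT points and bars at the means; the Slc7a11 axis is logarithmic and grey lines part the count tables. Slc7a11 spans 0.348 to 300 CPM, while the other genes stay within a few fold and their genotypes lie close together.

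Counted over the 9 genes, libraries of the genotypes did not overlap for 5 genes in spleen CD8 (Ggt1 and Txnrd1 above WT, Gclc, Gclm and Gpx1 below), where 35.5% of all fitted genes did not overlap. The count was 2 in spleen CD4 (Ggt1 above, Gclc below) beside 33% of all genes, and 2 in CD8 SP (Ggt1 above, Txnrd1 below) beside 15.4%. It was 1 in CD4 SP (Ggt1 above) beside 10.1% and 1 of the 8 fitted in DP (Gpx4 below) beside 12.2%. Over all genes tested, edgeR called 9.83% higher and 6.22% lower in spleen CD8, and 8.53% higher and 5.63% lower in spleen CD4. The 9 genes themselves are given no call. In the thymus 0.0172% and 0.0086% of genes were called higher and lower in DP, 0% and 0% in CD4 SP, and 0.0335% and 0.0805% in CD8 SP. The genes were chosen with this contrast known, so nothing is read from these counts. Outside Ggt1, log2 fold changes ran from -0.34 to 0.52 in spleen CD8, -0.11 to 0.19 in spleen CD4, -0.15 to 0.61 in CD8 SP, -1.26 to 0.47 in CD4 SP and -0.20 to 0.12 in DP.

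**Figure D4:**
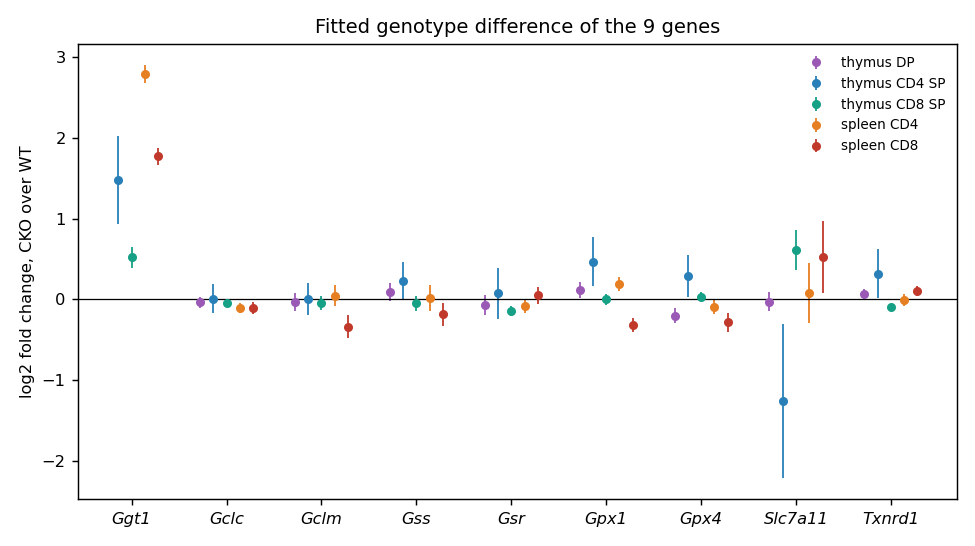
Fitted log2 fold change, CKO over WT, of the 9 genes in each population, with bars of 1 SE; Ggt1 was not fitted in thymus DP. Ggt1 stands at 2.79 in spleen CD4 and 1.77 in spleen CD8, and apart from Ggt1 and Slc7a11 the points lie close to 0.

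Set against length, the order of the genes differed from their order in CPM. In WT DP cells Gpx1 led with 40.1 CPM per kb of exon, ahead of Gpx4 (22.7), Gclc (21.8), Slc7a11 (19.5), Gsr (14.1), Txnrd1 (13.6), Gss (3.25), Gclm (2.85) and Ggt1 (0.100). In spleen CD8 Ggt1 reached 66.2 CPM per kb in CKO and 19.4 in WT, beside 44.3 in CKO and 55.5 in WT for Gpx1, so Ggt1 passed Gpx1 per length in CKO and lay under it in WT.

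In WT spleen the other 8 genes lay closer between populations than Ggt1. Gclc had 91.3 ± 1.73 CPM in CD8 cells against 76.7 ± 2.94 CPM in CD4 cells (log2 difference 0.24 ± 0.06), and Txnrd1 had 114 ± 2.03 against 95.6 ± 6.82 CPM (0.24 ± 0.06), both with no overlap. Gss differed by 0.30 ± 0.13 and Slc7a11 by -0.88 ± 0.41 on the log2 scale, the last at under 1 CPM. In the WT thymus Gpx1 had 74.9 ± 7.20 CPM in CD4 SP cells against 57.8 ± 6.09 CPM in DP cells (log2 difference 0.38 ± 0.11), with no overlap. Of all genes tested, 15.3% were called higher and 16.5% lower in spleen CD8 than in CD4, and 21.7% higher and 18.1% lower in CD4 SP than in DP.

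Ggt5, a family member that lies next to Ggt1, encodes an enzyme that also cleaves glutathione and leukotriene C4, and it differed from Ggt1. In spleen CD4 it had 53.2, 54.6 and 53.7 CPM in CKO 65, 68 and 72, against 43.0, 36.6 and 37.6 CPM in WT 67, 70 and 71. It was higher in CKO (log2 fold change 0.47 ± 0.08, edgeR, adjusted p = 0.00301), with no overlap. In spleen CD8 it had 16.7, 13.6 and 16.3 CPM in CKO against 20.6, 19.6 and 19.8 CPM in WT, a log2 fold change of -0.36 ± 0.11 (edgeR, adjusted p = 0.0581). The genotype effect in CD8 minus that in CD4 was -0.83 ± 0.13 (edgeR, adjusted p = 0.00272). In WT spleen Ggt5 ran against Ggt1, lower in CD8 than in CD4 at 19.97 against 39.0 CPM (log2 difference -0.98 ± 0.08, edgeR, adjusted p = 2.85e-06). In the WT thymus it ran with Ggt1, higher in CD4 SP than in DP at 7.08 against 0.623 CPM (log2 difference 3.46 ± 0.28, edgeR, adjusted p = 1.31e-06).

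The 6 protein-coding genes within 100 kb of Ggt1, added by position after the data were seen, did not all follow it. In spleen CD8, 2 of 6 were called higher in CKO and 0 lower, where 9.83% of all genes were called higher and 6.22% lower. They were Cabin1 (405 ± 24.8 against 274 ± 12.97 CPM, log2 fold change 0.57 ± 0.07, edgeR, adjusted p = 5.55e-04) and the low Susd2 (7.05 ± 0.694 against 3.52 ± 1.18 CPM). In spleen CD4, 4 of 6 were higher and 0 lower, beside 8.53% and 5.63% of all genes. There Lrrc75b, which starts 1.27 kb from Ggt1 on the other strand, had 37.3 ± 4.29 CPM in CKO against 10.5 ± 2.35 CPM in WT (log2 fold change 1.83 ± 0.16, edgeR, adjusted p = 2.87e-05). In spleen CD8 Lrrc75b had 31.2 ± 5.06 CPM in CKO and 32.8 ± 1.63 CPM in WT, a log2 fold change of -0.07 ± 0.12. Gucd1 (0.59 ± 0.07) and Cabin1 (0.55 ± 0.08) were the other calls in CD4 besides Ggt5, and Snrpd3, which encodes a core splicing protein, was not called in either population.

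The wider pathway was read from 130 genes on 9 lists of related function. In spleen CD4, 11 of 116 tested were higher in CKO and 8 lower, or 9.48% and 6.90% against 8.53% and 5.63% of all genes tested, with a median log2 fold change of -0.04 against -0.01 over all genes. In spleen CD8, 4 of 112 were higher and 11 lower, or 3.57% and 9.82% against 9.83% and 6.22%, with a median of -0.10 against -0.01. In the thymus 0 were called, of 105 in DP, 107 in CD4 SP and 113 in CD8 SP by edgeR, with 3, 1 and 9 at an unadjusted p under 0.05 and 0 by DESeq2 in each. Of the spleen calls, 5 genes were shared, 33.3% of those in CD8 and 26.3% of those in CD4, each with the same direction in both. Slc7a5 and Mthfd1 were lower and Pgd, Secisbp2 and Selenom higher.

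Amino acid supply had the most lower calls of the 9 lists in spleen CD4. There 4 of 11 tested genes were lower in CKO and 0 higher, beside 5.63% and 8.53% of all genes. The lower ones included Slc7a5, the light chain of a large neutral amino acid carrier, and Slc3a2, the heavy chain that also partners the Slc7a11 product. Slc1a5, a glutamine carrier, had 175, 173 and 181 CPM in CKO 65, 68 and 72, against 229, 207 and 232 CPM in WT 67, 70 and 71, with no overlap. Its log2 fold change was -0.33 ± 0.07 (edgeR, adjusted p = 0.00589), that of Slc7a5 -0.39 ± 0.09 (0.0120) and that of Slc3a2 -0.41 ± 0.10 (0.0201). In spleen CD8 Slc7a5 alone of 11 was lower (-0.33 ± 0.09, edgeR, adjusted p = 0.0340), beside 6.22% of all genes.

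The list of NADPH supply, which holds enzymes that make NADPH and others that do not, was divided. Gsr and Txnrd1 consume NADPH. In spleen CD4, 3 of 14 genes tested were higher (Idh2, Nadk and Pgd) and 2 lower (Mthfd1 and Rpia). Of all genes tested there, 8.53% were higher and 5.63% lower. Idh2, of the mitochondria, had 52.7, 51.5 and 48.2 CPM in CKO 65, 68 and 72, against 39.4, 39.7 and 40.1 CPM in WT 67, 70 and 71 (log2 fold change 0.35 ± 0.07, edgeR, adjusted p = 0.00820). Pgd of the pentose phosphate pathway was higher in both CD4 (0.38 ± 0.11) and CD8 (0.43 ± 0.12), and the folate enzyme Mthfd1 was lower in both (-0.32 ± 0.07 and -0.34 ± 0.08). The mitochondrial folate enzyme Mthfd2 in spleen CD8 had 21.7, 18.8 and 23.4 CPM in CKO, against 32.7, 30.6 and 30.5 CPM in WT, a log2 fold change of -0.55 ± 0.11 (edgeR, adjusted p = 0.00530).

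Among peroxidases and transferases the spleen CD8 calls were lower in CKO. Of 10 peroxidases and related enzymes tested there, 2 were lower, where 6.22% of all genes were. These were Prdx6 (130 ± 16.6 against 184 ± 20.7 CPM, log2 fold change -0.50 ± 0.11, edgeR, adjusted p = 0.00999) and Sod1 (-0.35 ± 0.11, 0.0470). Of 10 glutathione transferases tested there, 2 were lower. Gstk1 had 3.52, 3.12 and 2.87 CPM in CKO 65, 68 and 72, against 5.54, 5.75 and 5.88 CPM in WT 67, 70 and 71 (log2 fold change -0.85 ± 0.19, edgeR, adjusted p = 0.0118). Gstt2 was the other (-0.55 ± 0.12, 0.0118). In spleen CD4, 2 of 13 transferases were higher and 1 lower, beside 8.53% and 5.63% of all genes. Of these transferases Mgst1 and Gstt3 lay near or under 2 CPM. There 0 of 11 peroxidases were called, with 1 at an unadjusted p under 0.05 and 0 by DESeq2.

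Of the redox regulators, Bach1, a repressor of NRF2 targets, was lower in spleen CD4. It had 56.7, 68.9 and 65.3 CPM in CKO 65, 68 and 72, against 83.3, 88.6 and 86.0 CPM in WT 67, 70 and 71 (log2 fold change -0.43 ± 0.08, edgeR, adjusted p = 0.00407). Hmox1, a known target of that repressor, was called higher there by edgeR (0.77 ± 0.24, adjusted p = 0.0498) although its libraries overlapped, and DESeq2 gave 0.173. Summed myeloid markers were also higher in spleen CD4, at 113 to 248 CPM in CKO against 66.4 to 93.4 CPM in WT. The part of Bach1 or of myeloid cells in the Hmox1 values was not tested. Selenop, which encodes the secreted selenium carrier, had 124, 99.0 and 107 CPM in spleen CD8 CKO, against 168, 152 and 148 CPM in WT (log2 fold change -0.50 ± 0.09, edgeR, adjusted p = 0.00368), and its genotype effect in CD8 minus that in CD4 was -0.59 ± 0.12 (edgeR, adjusted p = 0.0143). In the fit without a block, 2 of 117 pathway genes differed in genotype effect between the spleen populations. In that fit 1.81% of all genes had a positive CD8 minus CD4 difference called and 0.749% a negative one. With the number in the titles as a block 7 of the pathway genes differed, and the share of all genes is not given for that fit. Between CD4 SP and DP, 0 of 108 differed (5 at an unadjusted p under 0.05, 0 by DESeq2), beside 0% and 0% of all genes.

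**Figure D5:**
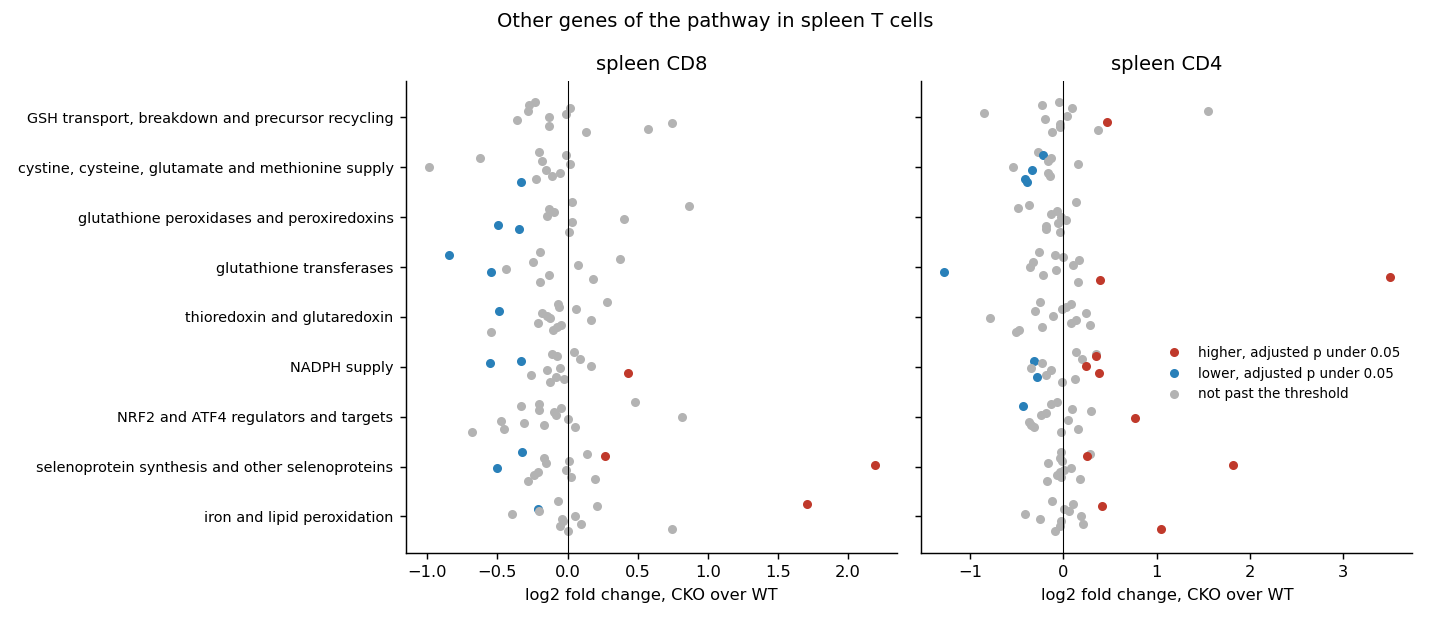
Log2 fold change, CKO over WT, of the tested genes on each of the 9 pathway lists, in spleen CD8 (left) and spleen CD4 (right), coloured where adjusted p was under 0.05. In CD8 cells 4 genes were higher and 11 lower, and in CD4 cells 11 higher and 8 lower. In CD4 cells the 4 calls in the amino acid supply list all lie below 0.

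Many calls of pathway genes were lost when 1 library was left out, a fit that also has fewer libraries to test with. The share of all genes called in those fits is not given, and the part of the smaller number of libraries was not tested. With a library left out, the log2 fold change in spleen CD4 stayed between 0.22 and 0.26 for Nadk and ran from 0.56 to 1.16 for Hmox1. Of the 19 calls in spleen CD4, Ggt5, Slc1a5, Idh2 and Bach1 held under every alternative tried, and of the 15 in spleen CD8 Gstk1, Mthfd2 and Selenop did. The number called in spleen CD4 was 6 without WT 70 or WT 71 and 8 without CKO 72. In spleen CD8 it was 6 without WT 67, WT 71 or CKO 72, 8 without WT 70, 9 without CKO 65 and 24 without CKO 68.

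Some sets of transcripts that mark other cells and states differed between genotypes in the spleen. Of all genes tested, 8.53% were called higher and 5.63% lower in spleen CD4, and 9.83% and 6.22% in spleen CD8. Summed myeloid markers reached 113 to 248 CPM in CKO and 66.4 to 93.4 CPM in WT of spleen CD4 (8 of 8 tested higher), and 43.3 to 68.2 against 21.05 to 30.4 CPM in spleen CD8 (3 of 8 higher). In spleen CD8, effector markers summed to 2037 to 2772 CPM in CKO against 1127 to 1347 CPM in WT (12 of 12 higher). Naive markers there summed to 4874 to 5175 CPM in CKO against 6216 to 6568 CPM in WT (7 of 10 lower), and cell-cycle genes to 499 to 663 against 306 to 332 CPM (9 of 10 higher). NK cell markers there summed to 115 to 173 CPM in CKO against 97.1 to 104 CPM in WT (3 of 5 higher, 0 lower). In spleen CD4 the effector markers summed to 407 to 548 CPM in CKO and 517 to 568 CPM in WT (3 of 12 higher, 2 lower). Naive markers there summed to 6139 to 6536 CPM in CKO and 5823 to 5944 CPM in WT (4 of 10 higher, 1 lower). Cell-cycle genes in spleen CD4 summed to 340 to 549 CPM in CKO and 320 to 358 CPM in WT (0 of 10 called). NK cell markers in spleen CD4 summed to 26.2 to 29.7 CPM in CKO and 26.1 to 31.4 CPM in WT (1 of 4 higher, 1 lower). B cell markers had 0 of 5 called in either spleen population. The part of these cells and states in the values of Ggt1 and the pathway genes was not tested.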

How the data were processed

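The data are raw counts of reads over genes, which the authors deposited as a table for DP and CD4 SP thymocytes, a table for CD8 SP thymocytes and a table for the spleen. Poly(A) RNA and a directional kit were used, per the labels' protocols. The submitters' processing notes name HISAT2, HTSeq and GRCm38. Tool versions, annotation and strand setting were not given in the sources used here. Levels were tested only within a table.

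Genes were kept by filterByExpr in edgeR 4.0.16 (R 4.3.3) with its defaults, scaled by TMM and tested with the quasi-likelihood test at a Benjamini-Hochberg adjusted 0.05. A genotype comparison used the 6 libraries of its population, a WT population comparison 6 libraries, and a difference of genotype effects an interaction over 12. The SE was taken as the size of the log2 fold change over the root of F. CPM per kb divides by the summed exon length in the GENCODE annotation. The test was tried on simulated counts first.

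The 9 genes and the lists were chosen with earlier results of these data known. Tests of the 9 genes between WT populations had been planned and are not reported, since their levels were part of that choice. Pathway genes named come from the called ones of each list, at most 4 per direction by smallest p, and are described in part; 1 of them is not reported here. The genes most like Ggt1 are those of highest Pearson r over the spleen libraries. The alternatives run were DESeq2 1.42.0, edgeR with the size factors of DESeq2, omission of the filter, at least 5 CPM in 3 libraries, a fit over the whole table, each library left out, and the number in the titles as a block. Deviations of same-numbered libraries correlated across genes at 0.0989 to 0.317 in the spleen, at -0.135 for CKO 23 and otherwise 0.0692 to 0.210 between DP and CD4 SP, and at 0.0529 to 0.127 between CKO and WT of CD8 SP. No pair of libraries in a group differed by less than sampling noise. Counting error and library number limit the precision of low levels.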

Additional observations from a re-analysis of the deposited data

Results flagged for a closer look

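The genotype effect differed between the spleen populations, by a test of the difference itself, for 2 of the 117 pathway genes tested. Of all genes tested, 1.81% had a positive and 0.749% a negative difference called. For Ggt5 the effect in CD8 minus that in CD4 was -0.83 on the log2 scale (edgeR, adjusted p = 0.00272), and for Selenop it was -0.59 (edgeR, adjusted p = 0.0143). In both cases the CD8 effect was the lower one. Ggt5 was lower in CKO in CD8 cells and higher in CKO in CD4 cells, and for Ggt5 the CD8 effect alone did not pass the threshold. Both held under every alternative tried.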

How the results depend on the processing

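The Ggt1 log2 fold change, CKO over WT, ran from 2.71 to 2.91 in spleen CD4 and from 1.69 to 1.89 in spleen CD8 over the alternatives. Without the filter on low counts 26 pathway genes were called in spleen CD8 against 15, 2 in thymus CD8 SP against 0, and 5 in the difference between spleen populations against 2. With the number as a block the last was 7, and the block gave 52 calls in WT spleen, 48 in WT thymus and 0 in CD8 SP and in the thymus difference; of the calls reported it lost only that of Gpx7 in WT thymus (adjusted p = 0.0651). Leaving out 1 library gave 6 to 19 calls in spleen CD4, 6 to 24 in spleen CD8 and 0 to 1 in CD8 SP. Signs turned in several small differences. With a library left out the genotype difference of Gsr in CD4 SP ran from -0.34 to 0.29 and that of Txnrd1 from -0.06 to 0.52. Differences between WT populations also turned. For Gpx1 in the spleen the value was -0.00168 with DESeq2 and with its size factors, -0.0131 under the stricter filter, and -0.0687 to 0.0473 with libraries left out. With a library left out Gpx4 ran from -0.133 to 0.0512 in the spleen and -0.0206 to 0.120 in the thymus, and Gss from -0.114 to 0.0249 in the thymus. The cause was not tested. Low levels limit Ggt1 in DP and Slc7a11 in the spleen.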

Other observations

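Over the 12 spleen libraries, after each library's population mean was subtracted, the genes whose log2 CPM ran most like that of Ggt1 were Ankrd13d (r = 0.992), Ube4a (0.990), Slc30a9 (0.989), Letm2 (0.987) and Ap1g2 (0.985), among 9053 genes ranked. The 12 points fall into the same genotypes, so this is a description. Ube4a, a ubiquitin ligase gene, had 237 CPM in CKO and 139 CPM in WT of spleen CD8, and 293 against 147 CPM in spleen CD4. Slc30a9, of a zinc transporter family, had 112 against 70.4 CPM in CD8 and 115 against 57.5 CPM in CD4.

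In WT thymocytes, genes of glutathione and amino acid transport differed between stages. Abcc1, a glutathione conjugate exporter, had 30.8 CPM in CD4 SP cells against 7.16 CPM in DP cells (2.10 ± 0.17, edgeR, adjusted p = 1.03e-06). Slc3a2 and Slc7a5 were also higher (0.81 ± 0.10 and 1.08 ± 0.10). The carriers Abcc5 and Slc1a5 of the same lists were lower (-0.96 ± 0.14 and -0.29 ± 0.10, edgeR, adjusted p = 1.69e-04 and 0.0301). Over all pathway genes, 33 of 106 were higher and 11 lower, or 31.1% and 10.4%, against 21.7% and 18.1% of all genes tested.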
